A study of Mus musculus with 6 samples.

Results

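Glycolysis and hypoxia response genes were followed over 6 bead arrays of mouse conjunctival epithelium, 3 labelled Sox9 knockout and 3 labelled wild type. The set was drawn up by gene symbol and held 35 genes, of which 21 act in glucose uptake, glycolysis and its control, 13 are other targets of hypoxia-inducible factor (HIF), and 1 is Hif1a itself. Probes were found by gene symbol, after the platform's symbols were updated to current ones where a match was found. Of the 19053 genes with a named probe, 32 were members, read by 61 probes. A member was tested if a probe was detected on at least 2 of the 6 arrays, which 26 members passed out of 11147 genes, and 21 of these were detected on all 6.

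The conjunctival epithelium is the thin moist layer between lid and eyeball, and its nasal and temporal parts bud into the Harderian and lacrimal glands. Nasal, temporal and dorsal epithelium was laser-captured at E14.5, with a single array for every combination of genotype and region. The arrays labelled knockout came from embryos with floxed Sox9 alleles and Le-Cre, a driver made from a Pax6 enhancer and active in ocular surface ectoderm, so cells outside that layer keep the gene. The others are labelled wild type, with no word on whether they carried a floxed allele or Cre, and both groups had a mixed background of FVB and 129. By the series' design text 3 embryos of each genotype were used and the cDNA of a region was pooled. The arrays of a genotype may therefore share embryos. P-values for genotype measure only how the knockout minus wild-type difference varies between regions, moderated over all genes. That spread may be too small for the spread between embryos. All 6 arrays lay on 1 chip, the 3 labelled knockout in neighbouring positions, so position and genotype cannot be told apart.

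As background, glycolysis splits glucose into pyruvate through a fixed order of enzymes, fed by glucose transporters of the cell surface and drained by lactate dehydrogenase when oxygen is short. HIF is a transcription factor whose alpha subunit is hydroxylated by the Egln oxygen sensors and destroyed while oxygen is present. When oxygen falls the subunit persists, pairs with Arnt and binds a short motif, RCGTG, in genes of glycolysis, vessel growth, collagen hydroxylation and mitochondrial turnover. Embryonic epithelia also run glycolysis with oxygen present, so glycolytic transcripts alone do not mark hypoxia.

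The upstream promoter sequence of the members shows how widely that motif occurs among them. In the 250 bases before a RefSeq start site (build GRCm38.p6), 29 of the 32 members with a promoter entry held ACGTG or GCGTG on either strand at 1 or more start sites, or 90.6%. Of all 27025 genes with an entry, 41.5% did, and of 17492 protein-coding genes 47.1% did. Per window rather than per gene the share was 79.2% of 48 member windows and 38.6% of 32851 windows. Both forms were counted together, and CACGTG counts once on each strand because it reads the same on both. Members were chosen as known HIF targets or glycolytic genes, so the share describes the set. A match is a stretch of letters and no evidence of binding. The promoters below are of the glucose transporter gene Slc2a1 and the stress gene Ddit4, whose knockout arrays all read above the wild-type ones, of Pgam2, which had a fitted difference above 1 log2 unit and no match in its window, and of Ankrd37, which differed most between regions. Capitals mark the motif.
Slc2a1 (chr4:119108495-119108744, plus strand): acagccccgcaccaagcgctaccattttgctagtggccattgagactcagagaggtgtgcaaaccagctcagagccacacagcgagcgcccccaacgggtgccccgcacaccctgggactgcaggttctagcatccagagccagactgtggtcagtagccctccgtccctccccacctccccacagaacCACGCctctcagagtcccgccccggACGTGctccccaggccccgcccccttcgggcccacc
Ddit4 (chr10:59951771-59952020, minus strand): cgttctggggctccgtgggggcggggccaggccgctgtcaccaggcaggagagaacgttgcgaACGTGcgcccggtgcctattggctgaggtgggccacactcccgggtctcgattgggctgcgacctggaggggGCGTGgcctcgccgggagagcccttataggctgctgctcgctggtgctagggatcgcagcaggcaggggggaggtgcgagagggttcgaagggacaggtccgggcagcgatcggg
Pgam2 (chr11:5803797-5804046, minus strand): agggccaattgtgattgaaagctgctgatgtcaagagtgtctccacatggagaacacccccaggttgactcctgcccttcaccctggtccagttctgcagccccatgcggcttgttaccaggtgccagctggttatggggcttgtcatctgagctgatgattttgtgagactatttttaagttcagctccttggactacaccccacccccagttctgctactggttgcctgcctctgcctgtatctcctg
Ankrd37 (chr8:45999851-46000100, minus strand): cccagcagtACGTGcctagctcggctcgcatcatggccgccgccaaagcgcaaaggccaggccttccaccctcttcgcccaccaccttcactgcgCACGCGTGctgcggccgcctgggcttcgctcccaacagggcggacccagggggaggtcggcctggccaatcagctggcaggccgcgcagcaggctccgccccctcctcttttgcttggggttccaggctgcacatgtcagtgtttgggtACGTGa

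Between 39.8% and 45.6% of 45281 probes were detected on an array. The epithelial genes Krt5, Krt14, Krt15, Cdh1, Trp63 and Epcam were detected on all 6 arrays, and 12 of 15 listed surface epithelium markers were tested, while Krt12, Krt13 and Dsp were not. Sox9 itself, by its brighter probe, read 10.21, 10.06 and 9.85 on the nasal, temporal and dorsal arrays labelled knockout and 8.29, 10.01 and 10.35 on the wild-type arrays, on a log2 scale. Its dimmer probe read 6.20, 5.84 and 6.57 on the knockout arrays and 5.21, 6.26 and 5.80 on the wild-type arrays. In nasal both probes read higher on the array labelled knockout, and in temporal and dorsal the probes had opposite signs. Their place relative to the deleted part is not known here, so they do not settle the labels, and "knockout" below means an array with that label. Summed signals of 8 tested macrophage markers were 252.2 to 403.6 on the knockout arrays and 169.3 to 258.3 on the wild-type arrays. By the fit 8 of 8 were higher, by 0.09 to 1.20, as were 5487 of all 11147 genes. Cd68, Ptprc and the C1q genes were not tested. Signals of 4 erythroid markers summed to 93.6 to 329.9 and 176.2 to 215, and those of 6 muscle markers to 138.3 to 170.3 and 138 to 183.2, on knockout and wild-type arrays in this order. As each sample is bulk tissue, fewer cells of a type and less RNA per cell cannot be told apart.

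The comparison of knockout with wild type asks whether transcripts of these pathways depend on Sox9. Higher on the knockout array in every region were 7 members, namely both glucose transporter genes Slc2a1 and Slc2a3, the enzyme genes Pfkl, Gapdh and Pgam2, the stress gene Ddit4 and the vessel growth factor gene Vegfa. None of the 26 was lower in all 3 regions. Over all genes 13% were higher in all 3 regions and 14.4% lower, against 26.9% and 0% of the members, and 27.4% of all genes had 1 sign throughout. All 3 knockout arrays stood above all 3 wild-type arrays for 3 members, Slc2a1, Gapdh and Ddit4, and below them for 0, where 5.16% and 6.31% of all genes did so (11.5% without overlap in either direction). No member passed in limma after Benjamini-Hochberg adjustment, with 0 of 11147 genes called (0%), and 2 of 26 members, Slc2a3 and Pgam2, both higher, had an unadjusted p under 0.05, against 5.9% of all genes (2.75% higher and 3.16% lower). Fitted differences, in log2 units, had a median of 0.15 over the 26 members and of -0.01 over all genes. With arrays scaled to their medians instead of quantile-normalized, 22 members read higher and 4 lower, against 15 and 11, and that scaling put the all-gene median at 0.14.

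The 15 tested glycolysis members had a median log2 difference of 0.43 in nasal, -0.19 in temporal and 0.30 in dorsal epithelium, with 11, 5 and 13 of 15 higher on the knockout array. For the 10 tested HIF targets outside glycolysis the medians were 0.63, 0.44 and 0.03, with 7, 8 and 5 of 10 higher. Of all genes 48.2%, 48.4% and 49.8% were higher in nasal, temporal and dorsal, with medians of -0.02, -0.02 and -0.0015. The order of the regions depended on the probes: with all probes of a gene averaged, detected or not, the medians were 0.30, 0.035 and 0.34 for glycolysis members and 0.34, 0.40 and 0.097 for HIF targets. A difference of at least 2-fold was read in nasal for 7 members upward and 2 downward, where 9.75% and 9.71% of all genes lay (19.5% in all). In temporal it was read for 4 and 2 (8.05% and 7.8% of all genes, 15.8% in all) and in dorsal for 3 and 0 (2.98% and 3.17%, 6.15% in all). With undetected members at their bound, the upward counts were 6 in nasal, without Pgam2, and 3 in temporal, without Ndrg1. These values rest on 1 array per genotype and region and carry no test.

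**Figure D1:**
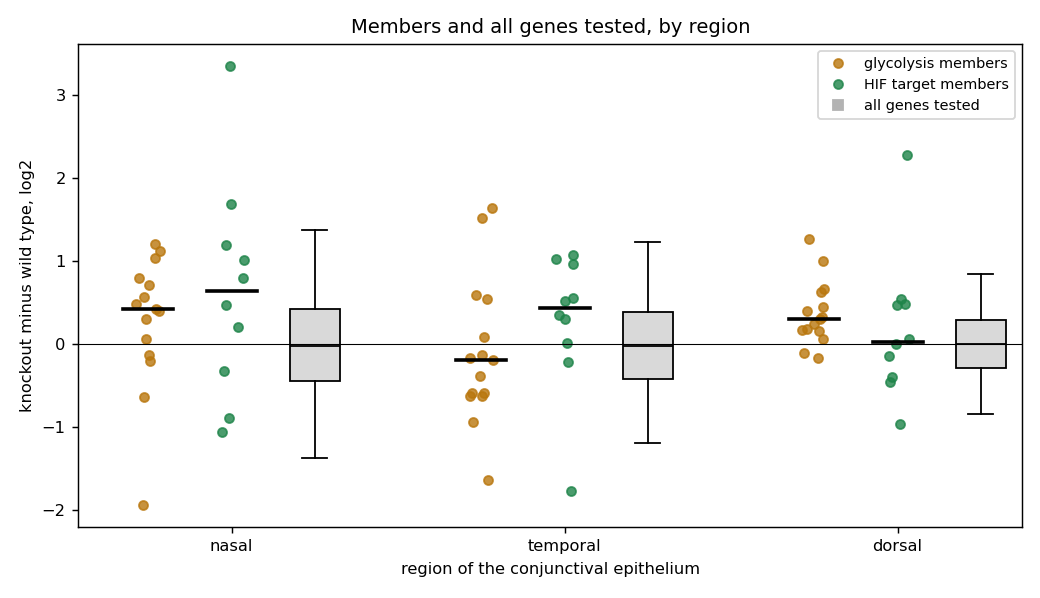
Knockout minus wild-type difference (log2, vertical axis) in nasal, temporal and dorsal epithelium for the 15 glycolysis members, the 10 HIF targets and all 11147 genes tested. Points are genes and bars their medians; boxes span the quartiles of all genes and whiskers run to percentiles 5 and 95. Glycolysis medians were 0.43, -0.19 and 0.30, and HIF target medians 0.63, 0.44 and 0.03.

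Glucose enters these cells through facilitative transporters. Slc2a1 (GLUT1), the basal transporter of most embryonic epithelia, read 10.51, 10.07 and 9.95 on the knockout nasal, temporal and dorsal arrays, against 9.80, 9.52 and 9.79 on the wild-type arrays (log2 level). The knockout values all lay above the wild-type values, by little in dorsal. The fitted difference was 0.47 (SE 0.25, adjusted p = 0.814 in limma). Slc2a3 (GLUT3), a transporter with high affinity for glucose known from neurons, embryos and white blood cells, read 8.22, 7.76 and 8.84 on the knockout arrays, against 7.10, 6.24 and 8.22 on the wild-type arrays. Each region's knockout array was above its wild-type partner, by 2.17-fold in nasal, 2.87-fold in temporal and 1.54-fold in dorsal, while the groups overlapped since dorsal epithelium read highest in both genotypes. Its fitted log2 difference was 1.09 (SE 0.28, 95% interval 0.39 to 1.79, adjusted p = 0.814 in limma). Macrophage markers summed higher on each knockout array than on its wild-type partner (403.6 against 258.3 in nasal, 252.2 against 169.3 in temporal, 376 against 190.6 in dorsal). Single markers were mixed, with 6, 6 and 5 of 8 higher in nasal, temporal and dorsal. Laptm5 had the widest dorsal difference of the 8 (2.66) and was lower in nasal (-1.93). Mrc1, Lyz2, Csf1r, Tyrobp and Aif1 were detected on 3 arrays each and Adgre1 on 2. The part of macrophages in the Slc2a3 values was not tested. Signals of 6 tested nerve and glia markers summed to 495.2, 186.1 and 280.3 on the knockout nasal, temporal and dorsal arrays and to 284.8, 897.7 and 250.5 on the wild-type arrays. At least 2-fold lower on the knockout temporal array were 5 of these 6, against 7.8% of all genes. The part of nerve and glia in the Slc2a3 values was not tested. In temporal, 4 lens markers summed to 292.8 on the knockout array and 107.7 on the wild-type array, and 3 retina and pigment cell markers to 390.3 and 191. Of the lens markers 2 were higher there on the knockout array, Prox1 most (2.59), and 2 were lower. Of the retina and pigment cell markers 1 was higher, Mitf (1.29), and 2 were lower. The part of lens, retina and pigment cells in the temporal values of any member was not tested.

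**Figure D2:**
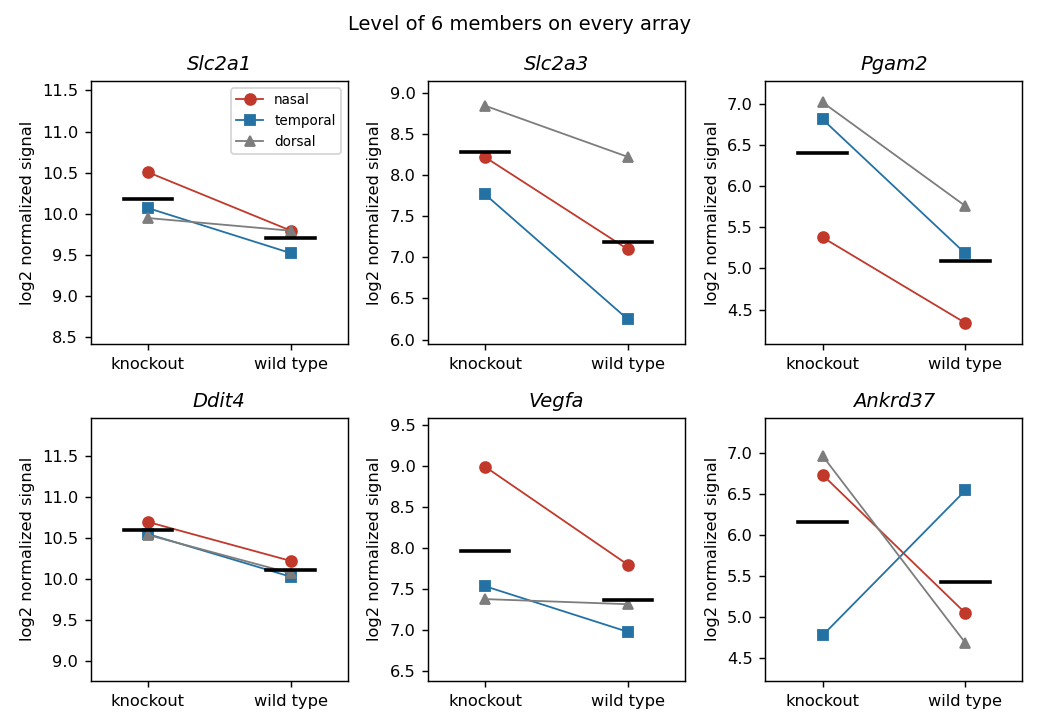
Level of 6 members (log2 normalized signal, vertical axis) on the 3 knockout arrays (left) and 3 wild-type arrays (right) of each panel. Lines join the arrays of a region and black bars are means over regions. Ddit4 stood at 10.54 to 10.69 on knockout arrays and at 10.03 to 10.22 on wild-type arrays, whereas Ankrd37 crossed over in temporal epithelium.

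Of the glycolytic enzymes, 11 of 16 were tested. Hk2, Gpi1 and Eno1 had no probe under these symbols and are not analysed here. Hk1, which phosphorylates glucose on entry, was detected on 1 array and Aldoc on none. A probe of Eno1b, a gene that RefSeq also lists under the older name Eno1, read 7.59, 6.71 and 7.45 on knockout arrays and 6.80, 6.99 and 7.04 on wild-type arrays, and was not counted as a member. Several of these enzymes have near-identical processed copies in the mouse genome, and probes may read more than 1 copy.

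Fitted differences of the 11 tested enzymes ran from -0.39 (Pgk1) to 1.31 (Pgam2), with 4 higher and 7 lower. Phosphofructokinase, the committed step, has 3 subunit genes. The liver-type Pfkl had log2 differences of 0.80, 0.59 and 0.39 in nasal, temporal and dorsal (fit 0.59, SE 0.24, adjusted p = 0.814 in limma), though its dimmer probe gave -0.35, -0.10 and 0.46. That dimmer probe was detected on neither temporal array. Muscle-type Pfkm had 0.40, -0.94 and 0.32, and the brightest probe of platelet-type Pfkp was detected on only 2 arrays, the knockout dorsal and the wild-type nasal. Aldoa, which splits fructose bisphosphate, differed by at most 0.13 in either direction. Tpi1, which interconverts the triose phosphates, and Pgam1, the mutase of most tissues, were both higher in nasal (0.43 and 0.48) and lower in temporal (-0.58 each). A second bright probe of Tpi1 read 0.58, 0.24 and 0.24, and a second probe of Pgam1 0.48, 0.28 and 0.45, so the lower temporal values were seen with 1 probe of each. Pkm, pyruvate kinase, lay within 0.17 of 0 in all regions by its brighter probe and at 0.47, 1.14 and 0.60 by its other probe.

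Gapdh, which oxidises glyceraldehyde phosphate, read 9.18, 9.08 and 9.36 on knockout arrays and 8.88, 9.0 and 8.91 on wild-type arrays. The groups did not overlap, though the temporal pair was 0.08 apart, and the fit gave 0.28 (SE 0.24, adjusted p = 0.883 in limma). Pgk1, the first ATP-yielding step, read 8.30, 6.93 and 8.65 on knockout arrays and 8.50, 8.57 and 7.99 on wild-type arrays. The knockout temporal array alone was low, 3.11-fold under its wild-type partner (log2 difference -1.64, bead SE 0.10), and the other probes of Pgk1 gave -0.05 and 0.53 there. The probe with -0.05 was detected on neither temporal array. The one with 0.53 was dim, at 5.10 on the knockout and 4.57 on the wild-type temporal array. Bead SE covers measurement on the array only. Ldha, which turns pyruvate into lactate, read 9.44, 8.53 and 8.92 on knockout arrays and 8.88, 9.15 and 9.08 on wild-type arrays. The knockout nasal array was the highest and the knockout temporal array the lowest of the 6, and the fit was -0.07 (SE 0.31, adjusted p = 0.981 in limma).

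Pgam2, the muscle form of phosphoglycerate mutase, read 5.38, 6.81 and 7.02 on the knockout nasal, temporal and dorsal arrays, and 4.34, 5.18 and 5.76 on the wild-type arrays. Within each region the knockout array was higher, by 3.10-fold in temporal, 2.40-fold in dorsal and at least 1.85-fold in nasal, where the wild-type array did not detect it. The groups overlapped, since the nasal arrays read lowest in both genotypes. The fitted log2 difference was 1.31 (SE 0.26, 95% interval 0.68 to 1.95, adjusted p = 0.814 in limma). It depended on how dim signals were treated, at 0.64 with no background correction, 0.81 with an offset of 50 and 2.27 with the authors' processed values. Under the first 2 of these Slc2a3 had the higher difference (0.81 and 0.91). Of 14 muscle markers on the array 6 were tested, while Myog, Acta1, Ckm and Mb were not. Tnnt1, Myod1, Des, Mylpf and Actc1 were each detected on only 2 arrays, so sums of these markers hold much background. The sums were 157 on the knockout nasal array and 138 on its wild-type partner, 138.3 and 174.4 in temporal, and 170.3 and 183.2 in dorsal. Higher on the knockout array were 6 of 6 markers in nasal, 1 in temporal and 3 in dorsal. The part of muscle in the Pgam2 values was not tested. Pgam2 has 1 probe, so its values have no second reading.

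Of the regulators of glycolysis, Pdk1 blocks pyruvate from entering the mitochondrial cycle, and Pfkfb enzymes set the level of the activator of phosphofructokinase. Pdk1 read 5.56, 4.79 and 5.27 on knockout arrays and 4.36, 5.17 and 4.96 on wild-type arrays. It was at least 2.10-fold higher on the knockout nasal array, as the wild-type nasal array did not detect it, and its second probe was likewise detected on the knockout nasal array and not on the wild-type one. Pfkfb4 read 4.32, 5.33 and 6.66 on knockout arrays and 6.25, 5.95 and 5.66 on wild-type arrays. It was at least 3.18-fold lower in nasal, where the knockout array did not detect it, and 2.0-fold higher in dorsal. Pfkfb3 was detected on 1 array and was not tested.

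**Figure D3:**
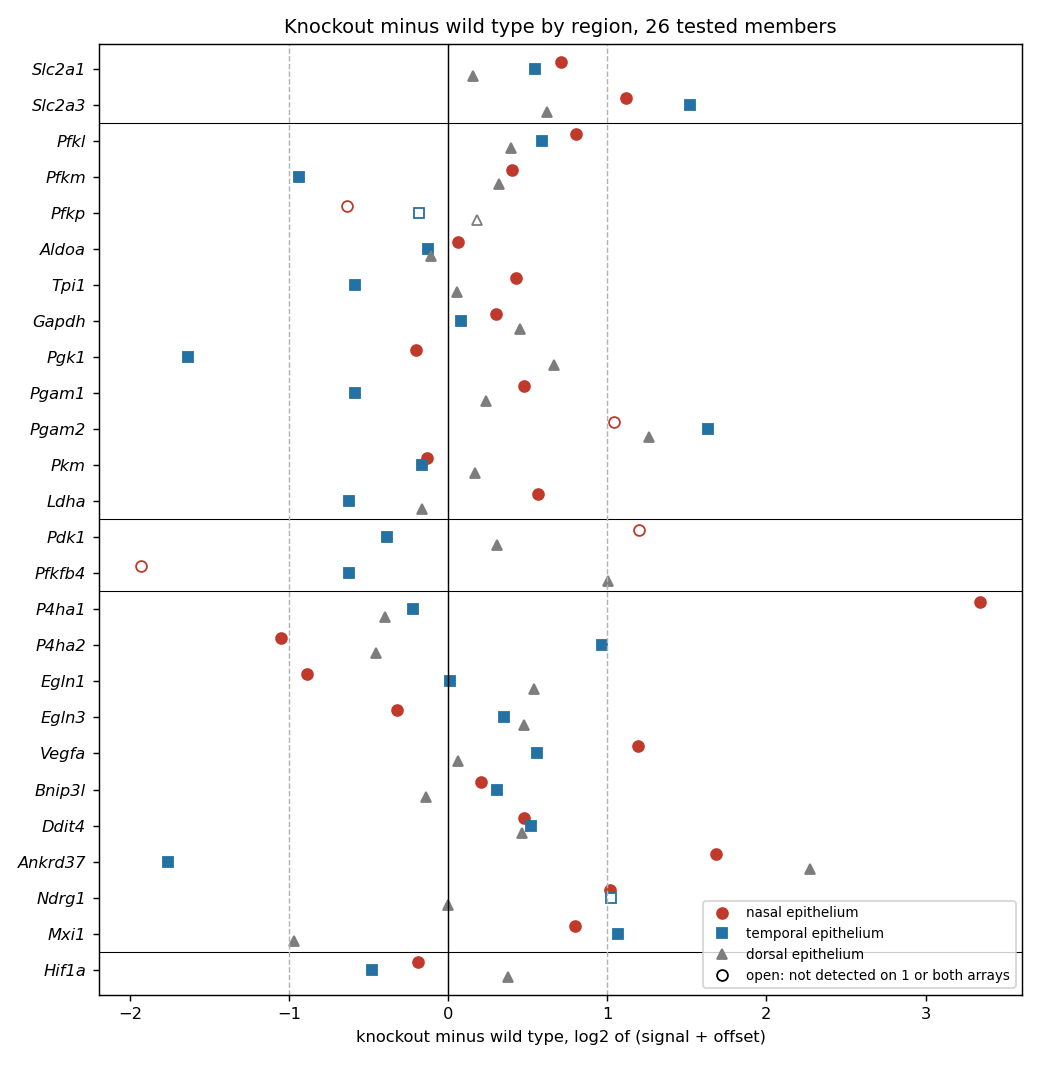
Knockout minus wild-type difference (log2, horizontal axis) of the 26 tested members in nasal (circles), temporal (squares) and dorsal (triangles) epithelium, in the order glucose transporters, enzymes along the pathway, regulators, HIF targets and Hif1a. Open symbols mark a region in which 1 or both arrays did not detect the probe, and dashed lines a 2-fold difference. Slc2a3 and Pgam2 lay right of 0 in every region, while P4ha1 was far right (3.35) in nasal alone.

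The HIF targets outside glycolysis had fitted differences from -0.18 to 0.91. Ddit4, an inhibitor of mTOR complex 1 induced by low oxygen and other stresses, was the most even, at 10.69, 10.55 and 10.54 on knockout arrays against 10.22, 10.03 and 10.07 on wild-type arrays. The groups did not overlap and the 3 regional differences were 0.47, 0.52 and 0.47 (fit 0.49, SE 0.23, adjusted p = 0.814 in limma). It was singled out after its values were seen. Vegfa, which drives vessel growth, read 8.99, 7.53 and 7.38 on knockout arrays and 7.80, 6.98 and 7.32 on wild-type arrays. The knockout nasal array stood apart, 2.28-fold above its partner, and the dorsal pair was 0.06 apart (fit 0.60, SE 0.30, adjusted p = 0.814 in limma). The fit was 0.31 without the nasal arrays and 0.29 with all probes averaged. That average includes a probe detected on 1 array only, with a mean difference of -0.27, while the remaining dimmer probe had 0.54. A dimmer Vegfa probe gave -0.28, 1.04 and 0.86, so the region with the larger difference changed with the probe.

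P4ha1 and P4ha2 encode catalytic subunits of the prolyl hydroxylase that stabilises collagen. P4ha1 read 8.04, 4.66 and 4.94 on knockout arrays and 4.69, 4.88 and 5.34 on wild-type arrays. The knockout nasal array was 10.2-fold above its partner (log2 difference 3.35, bead SE 0.11), the widest regional difference of any member, while the other 5 arrays lay within 1 log2 unit. The second P4ha1 probe, detected on 4 arrays including both nasal ones, gave 0.26 in nasal. The fit was 0.91 (SE 0.76) and -0.31 without the nasal arrays. P4ha2 read 5.25, 5.82 and 5.41 on knockout arrays and 6.30, 4.85 and 5.86 on wild-type arrays. It was lower in nasal (-1.05) and higher in temporal (0.97), and its further probes had the same signs in all regions. In nasal they gave -0.62 and -0.98. Their temporal values were far smaller, at 0.12 and 0.23, the first from a probe that neither temporal array detected. In dorsal they gave -0.31 and -0.02. Signals of 13 tested periocular mesenchyme markers summed to 1094.7, 1264.8 and 1393.6 on the knockout nasal, temporal and dorsal arrays. On the wild-type arrays they summed to 1467.5, 955.1 and 1583.1. Of these markers 4, 8 and 6 of 13 were higher on the knockout array in nasal, temporal and dorsal. The part of mesenchyme in the P4ha1 and P4ha2 values was not tested.

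Ankrd37, an ankyrin repeat protein gene known as a direct HIF1 target, read 6.73, 4.78 and 6.96 on knockout arrays and 5.05, 6.54 and 4.69 on wild-type arrays. It was 3.21-fold higher in nasal, 3.39-fold lower in temporal and 4.84-fold higher in dorsal, and 1 probe carried all these values. Ndrg1, a stress-induced gene of differentiating epithelia, read 6.40, 5.32 and 5.00 on knockout arrays and 5.38, 4.30 and 5.00 on wild-type arrays. It was 2.02-fold higher in nasal and at least 1.81-fold higher in temporal, where the wild-type array did not detect it, and level in dorsal (fit 0.68, SE 0.31, adjusted p = 0.814 in limma). Without the dorsal arrays the fit was 1.02, and with the authors' processed values 1.65. Mxi1, which antagonises Myc, read 7.96, 8.24 and 6.98 on knockout arrays and 7.17, 7.18 and 7.94 on wild-type arrays. It was higher on the knockout array in nasal and temporal (0.80 and 1.07) and lower in dorsal (-0.97).

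Egln1 and Egln3 are the oxygen sensors that mark HIF alpha subunits and are themselves HIF targets. Egln1 had differences of -0.88, 0.01 and 0.54, and all 3 of its probes read lower in nasal (-0.88, -0.86 and -0.87). In dorsal the further Egln1 probes gave 0.20 and -0.04. Egln3 had -0.32, 0.35 and 0.48, while its further probes gave -0.07, 0.07 and -0.78, and 0.26, 0.69 and 0.29. The first of these Egln3 probes was undetected on the knockout nasal and dorsal arrays, and the second on the wild-type temporal array. Bnip3l, a receptor for removal of mitochondria that is also high in maturing red cells, had 0.21, 0.31 and -0.14, beside erythroid sums of 329.9, 184.9 and 93.6 on knockout arrays and 215, 178.1 and 176.2 on wild-type arrays, whose part was not tested. Bnip3 and Adm were detected on 0 arrays and Car9 on 1, although their promoters hold the motif. These last 3 genes are common reporters of hypoxia, and at this sensitivity their transcripts were not detectable in either genotype, apart from 1 Car9 probe on the wild-type nasal array.

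Hif1a, the regulated subunit, read 6.58, 6.33 and 6.71 on knockout arrays and 6.76, 6.81 and 6.33 on wild-type arrays. The groups overlapped, and the fit was -0.10 (SE 0.28, 95% interval -0.79 to 0.59, adjusted p = 0.971 in limma). Its second probe read 0.13, -0.70 and -0.84. HIF1 alpha is set mainly by protein breakdown, which arrays do not measure. Among 16 tested genes of HIF assembly and oxygen sensing, 10 were higher and 6 lower (median 0.07), and 0 passed. The related subunit gene Epas1 (HIF2 alpha) had the highest fitted difference, with levels of 4.34, 6.38 and 6.64 on knockout arrays and 4.34, 4.71 and 5.00 on wild-type arrays. It was undetected on both nasal arrays and higher on the knockout array in temporal and dorsal (1.66 and 1.65; fit 1.10, SE 0.40, adjusted p = 0.814 in limma). Arnt2, a partner subunit, had 0.61, and lowest were Siah2, a ubiquitin ligase acting on the Egln proteins, at -0.42 and Egln2 at -0.37.

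Genes next to the set did not share a direction. Of 21 further HIF targets 11 were higher and 10 lower, with a median of 0.05 beside 0.39 for the 10 HIF target members, and 0 passed. Highest were Ppp1r3c, a glycogen-targeting phosphatase subunit (1.05, of which 2.40 in temporal), and Insig2 (0.86). Lowest were Stc2, a secreted stanniocalcin (-1.11, SE 0.33), and the transferrin receptor gene Tfrc (-0.86). In limma the adjusted p of both was 0.814. Of 5 tested genes of glycolysis and lactate outside the set, 1 was higher, Bpgm at 0.10, with Adpgk at -0.00, and lowest were the heart-type lactate dehydrogenase gene Ldhb at -0.36 and Pfkfb2 at -0.25. Pyruvate oxidation and TCA cycle genes had 8 of 25 higher and 17 lower (median -0.10), from Dlat (0.50) and Ogdh (0.46) to Sdha (-0.55) and Pdp2 (-0.47). Pentose phosphate genes had 6 of 8 higher (median 0.11), from Rpe (0.53) and Pgls (0.28) to Tkt (-0.28) and Pgd (-0.17). In each of these lists 0 genes passed in limma, and at an unadjusted p under 0.05 stood Epas1 and Stc2 alone.

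Regions were compared over both genotypes, and no member passed. Each contrast rests on the brightest probe of a gene. The contrast of gland-forming regions (mean of nasal and temporal) with dorsal gave -1.20 for Slc2a3 (SE 0.30), -0.96 for Pgam2 (SE 0.27) and -0.84 for Egln3 (SE 0.29), each negative, with an adjusted p of 0.999 in limma. These 3 of 26 members had an unadjusted p under 0.05, against 3.83% of all genes, and 0 genes passed (0%). A further Egln3 probe, detected on 5 arrays, read 5.49, 4.98 and 5.18 on the knockout nasal, temporal and dorsal arrays. On the wild-type arrays it read 5.24, 4.29 and 4.89. The remaining Egln3 probe, detected on 4 arrays, read 4.45, 4.59 and 4.33 on knockout arrays and 4.52, 4.52 and 5.12 on wild-type arrays. Nasal minus temporal gave 1.13 for Vegfa (SE 0.37), 1.08 for Ndrg1 (SE 0.38) and -1.14 for Pgam2 (SE 0.31), with adjusted p from 0.69 to 0.702 in limma. Here 3 of 26 members had an unadjusted p under 0.05 against 7.08% of all genes, and again 0 passed (0%). A dimmer Vegfa probe, detected on 5 arrays, read 4.72 in nasal and 5.63 in temporal on knockout arrays, and 5.00 and 4.59 on wild-type arrays. The second Ndrg1 probe, undetected on both temporal arrays, read 5.11 in nasal and 4.20 in temporal on knockout arrays. On wild-type arrays it read 4.56 and 4.16. An interaction term set the dorsal knockout difference against the mean of the nasal and temporal ones, with 1 residual degree of freedom, and 0 genes passed (0%). At an unadjusted p under 0.05 stood Pfkfb4 (2.28, SE 0.80) and Mxi1 (-1.90, SE 0.59), 2 of 26 members against 2.08% of all genes.

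Second readings of the same gene limit what single values show. For 15 members a further probe was detected on at least 2 arrays, giving 20 pairs of the brightest probe with another. The sign of the mean difference was the same in 15 of 20 pairs, and that of the regional difference in 13 in nasal, 12 in temporal and 13 in dorsal. These counts include regions in which neither array detected the further probe. In temporal this held for a further probe of Pfkl, Pgk1, Pdk1, P4ha1, P4ha2 and Ndrg1. Such signs compare background readings and are no second reading of the gene. In nasal the probes of P4ha2, Pdk1 and Egln1 kept their signs. P4ha1 in nasal, P4ha2 and Pgk1 in temporal and Vegfa in nasal were far smaller or turned with another probe. In temporal, 1 further probe each of P4ha2 and Pgk1 was detected on neither array. Slc2a1, Slc2a3, Aldoa, Gapdh, Pgam2, Ldha, Bnip3l, Ddit4, Ankrd37 and Mxi1 have 1 probe each and no such check. Pfkfb4 has none either, as its further probe was detected on 0 arrays.

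**Figure D4:**
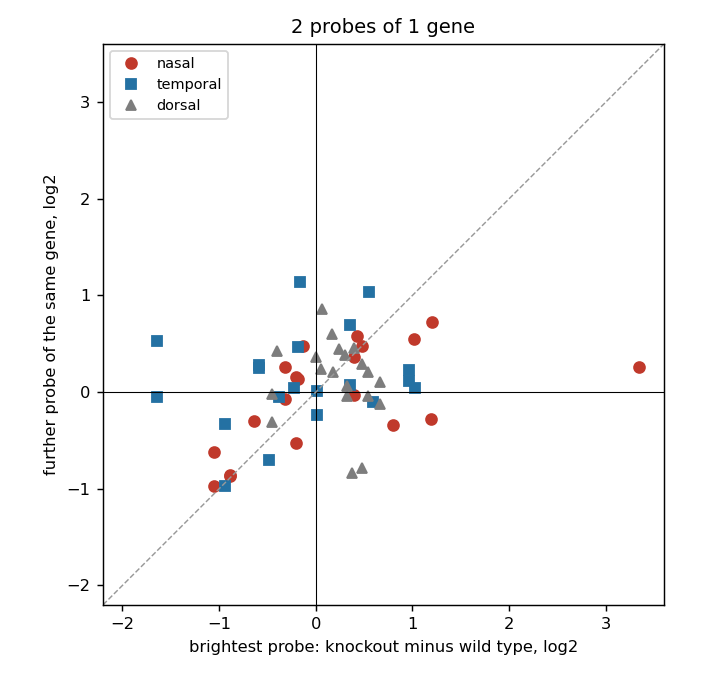
Knockout minus wild-type difference (log2) of the brightest probe of a gene (horizontal axis) and of a further probe of that gene (vertical axis), for 20 probe pairs of 15 members in nasal, temporal and dorsal epithelium. Further probes were detected on at least 2 arrays, which need not include those of the region shown. The dashed line marks equal values; the point at 3.35 on the horizontal axis is P4ha1 in nasal, where the other probe read 0.26.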

How the data were processed

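Expression was measured on 6 Illumina bead arrays, 1 for each genotype and region. Per the labels' protocols, embryos were cryosectioned at 10 micrometres, the epithelium was laser-captured, and 15 ng of total RNA was amplified before biotin labelling. That protocol names lens tissue of a single embryo, whereas the design text states pooled cDNA; the design text was followed. Per the file headers, the deposited table gives an average signal intensity, its standard error over beads, a count of beads and a detection p-value for each probe. GenomeStudio is named in the submitters' processing notes. The deposited intensities were not background-subtracted or normalized between arrays. A second deposited table of processed intensities, with negative values and medians of 4.24 to 4.25, has a normalization not given in the sources used here. Entries without a probe identifier, 1315 of them in the first table, were not used.

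Of 45281 probes, 34885 had 1 gene symbol, 18 several and 10378 none. Symbols were updated through the NCBI table of GRCm38.p6, which matched 34807 through Entrez numbers and a further 11 through accessions. Signals were background-corrected with limma 3.58.1 in R 4.3.3 (normexp, negative controls inferred from detection p-values, offset 16), quantile-normalized and taken to log2. Because the offset is added before the log, folds of dim genes come out too small. Probes with a detection p under 0.05 on at least 2 arrays were kept and the brightest stood for its gene. Where 1 array of a pair did not detect a probe, a bound was computed against the higher of its own value and the lowest value of any detected probe of that array. A model with region and genotype was fitted to all 11147 genes (lmFit, eBayes, two-sided, Benjamini-Hochberg, threshold 0.05). Simulated data with independent errors checked only that the fit returned planted mean differences. They did not check its p-values for arrays that may share embryos. Exact permutation of 3 against 3 arrays has 0.1 as its smallest p and was not run. Precision is limited by how few arrays there are, with a median 95% half-width of 0.711 log2 units. Members differing at least 2-fold in 1 region, with Hif1a, Slc2a1, Gapdh, Ldha and Vegfa, are given on every array, as are the 2 highest and 2 lowest genes of each neighbouring list by difference. The members and lists were chosen with earlier results of these data known.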

Additional observations from a re-analysis of the deposited data

Results flagged for a closer look

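Ankrd37 differed at least 2-fold in opposite directions between regions. Its knockout minus wild-type log2 difference was 1.68 in nasal and -1.76 in temporal, a gap of 3.44, and 2.27 in dorsal, a gap of -4.04 for temporal against dorsal. Pfkfb4 had -1.93 in nasal and 1.00 in dorsal, a gap of -2.94, and its nasal value rests on a knockout array that did not detect it. There was 1 array per genotype and region, so neither difference between regions was tested on its own. In the test of dorsal against the other regions together, adjusted p was 0.9999 in limma for both genes.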

How the results depend on the processing

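Under all 17 alternatives 0 genes were called for genotype in limma, with 455 to 1106 genes and 1 to 7 members at an unadjusted p under 0.05. Region contrasts (13 alternatives each) and the interaction (7) also gave 0. Members with 1 sign in all 3 regions numbered 6 to 10 over 8 alternatives. The fit without region as a block (no replicate block) called 0 genes. Region pairs the arrays in the main model. The median of the glycolysis members ranged from -0.033 to 0.36 with 1 array left out, 0.36 being the value without either or both temporal arrays, and that of the HIF target members from 0.27 to 0.38. Median scaling gave nasal medians of 0.77 for glycolysis and 1.00 for HIF targets. Without a detection filter the nasal HIF target median was 0.21, and the authors' processed values gave a temporal glycolysis median of -0.61. Signs turned without 1 or both nasal arrays for Pdk1 (-0.041), Pfkfb4 (0.19), P4ha1 (-0.31) and P4ha2 (0.26), without temporal ones for Pgk1 (0.23), Ldha (0.20), Mxi1 (-0.086) and Hif1a (0.093), and without dorsal ones for Ankrd37 (-0.041). The other ends of their ranges with 1 array left out were 0.75 for Pdk1, -1.28 for Pfkfb4, 1.56 for P4ha1, -0.75 for P4ha2, -0.92 for Pgk1, -0.39 for Ldha, 0.93 for Mxi1, -0.33 for Hif1a and 1.98 for Ankrd37. Median scaling turned Ldha (0.21) and Hif1a (0.15). Leave-out fits hold fewer arrays, and other causes were not tested. Dropping the knockout array, the wild-type array or both of a region gives 1 and the same genotype fit, so these 9 alternatives are 3 distinct ones. Over its alternatives Pgam2 ranged from 0.64 to 2.27, Slc2a3 from 0.81 to 1.38, Ndrg1 from 0.29 to 1.65, Vegfa from 0.29 to 0.89, Slc2a1 from 0.35 to 0.73 and Gapdh from 0.19 to 0.56. Signal close to background limits the dimmer members.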
